A study of Mus musculus with 8 samples.

Results

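The G1 cyclins Ccnd1, Ccnd2, Ccnd3 and Ccne1, the kinases Cdk4 and Cdk6, the CDK inhibitors Cdkn1a, Cdkn1b and Cdkn2c, and the growth regulator Myc were followed in macrophages exposed to So(d18:1). These 10 genes were chosen by name, with earlier results of these data known, from the 55357 genes of the count table. All 10 were among the 14514 genes with enough counts to be tested. The cells were bone marrow-derived macrophages (BMDM), which are grown from marrow progenitors of C57BL/6J wild-type mice in macrophage colony-stimulating factor (M-CSF). All 8 libraries shared that strain, growth factor and cell type. So(d18:1) is sphingosine, a sphingoid base released from ceramide. The 4 treated libraries came from cells given 2 μM So(d18:1) in methanol for 6 h, and the 4 control libraries from cells given methanol for the same time. The labels name no inflammatory stimulus, whereas the study's text places its macrophages under inflammatory stimulation. The study describes the libraries as biologically independent, but the mouse behind each library is not given, so the p-values measure only the spread between these libraries.

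D-type cyclins are made in response to growth factors and bind CDK4 or CDK6, which phosphorylate the RB protein and release E2F factors for entry into S phase. Cyclin E, with CDK2, completes that step. The CIP/KIP inhibitors p21 (Cdkn1a) and p27 (Cdkn1b) block cyclin E-CDK2, whereas p18INK4C (Cdkn2c) binds CDK4 and CDK6 themselves. In macrophages, M-CSF induces Myc soon after it is added and cyclin D1 somewhat later, and both fall when the growth factor is withdrawn.

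The sequences around the start sites of 4 of these genes are shown because they cover both a kinase whose mRNA fell and its closest relative, and both inhibitors whose mRNA rose. Each runs 5′ to 3′ from 250 bases before the RefSeq start site to 50 bases after it (build GRCm38.p6). Capitals mark an E-box (CACGTG, bound by MYC-MAX and related factors) or a GC box (GGGCGG, or CCGCCC on the other strand, bound by SP1 and its relatives).
Cdk6, chr5:3343643-3343942, plus strand: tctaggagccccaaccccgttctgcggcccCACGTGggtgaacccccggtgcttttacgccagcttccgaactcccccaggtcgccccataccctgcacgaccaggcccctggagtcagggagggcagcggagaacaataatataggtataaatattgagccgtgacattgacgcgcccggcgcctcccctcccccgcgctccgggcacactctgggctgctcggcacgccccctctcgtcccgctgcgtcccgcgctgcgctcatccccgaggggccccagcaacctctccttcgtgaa
Cdk4, chr10:127063285-127063584, plus strand: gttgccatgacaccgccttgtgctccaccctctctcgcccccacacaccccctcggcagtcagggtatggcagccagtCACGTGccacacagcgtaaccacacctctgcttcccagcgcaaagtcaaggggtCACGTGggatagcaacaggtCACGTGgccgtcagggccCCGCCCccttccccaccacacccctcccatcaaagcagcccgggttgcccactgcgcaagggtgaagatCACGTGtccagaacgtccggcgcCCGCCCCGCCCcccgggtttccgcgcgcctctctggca
Cdkn1b, chr6:134920151-134920450, plus strand: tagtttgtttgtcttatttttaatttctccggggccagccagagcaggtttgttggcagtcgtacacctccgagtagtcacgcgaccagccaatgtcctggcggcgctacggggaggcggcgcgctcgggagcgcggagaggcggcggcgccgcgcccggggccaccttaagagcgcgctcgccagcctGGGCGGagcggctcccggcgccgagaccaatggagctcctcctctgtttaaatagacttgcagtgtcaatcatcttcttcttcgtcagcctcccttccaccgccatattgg
Cdkn2c, chr4:109666707-109667006, minus strand: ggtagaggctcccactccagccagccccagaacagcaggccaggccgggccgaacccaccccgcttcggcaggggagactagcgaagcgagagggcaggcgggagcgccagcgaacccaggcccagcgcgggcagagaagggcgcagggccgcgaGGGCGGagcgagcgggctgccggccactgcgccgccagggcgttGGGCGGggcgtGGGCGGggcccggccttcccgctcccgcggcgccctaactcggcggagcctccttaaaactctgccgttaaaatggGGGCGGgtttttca

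The Cdk6 promoter held 1 E-box, whose first base lay 220 bases before the start site, and no GC box. The Cdk4 promoter held 4 E-boxes, at 172, 118, 98 and 11 bases before the start, and 3 GC boxes, of which 2 overlap each other by 1 base. The Cdkn1b promoter held 1 GC box, 61 bases before the start, and the Cdkn2c promoter shown held 4, at 95, 51 and 40 bases before and 36 bases after it. A second Cdkn2c promoter in the table, not shown, held no GC box and had an E-box 34 bases after its start. The RefSeq table holds 10 promoters for 7 of the genes and none for Ccnd1, Ccnd2 and Myc. Of these 10 promoters, 3 held an E-box and 7 a GC box, against 7.15% and 35.7% of all 32851 mouse promoters of the same length. One of the 10, a promoter of Ccnd3, held the FOXO motif GTAAACA, found in 3.65% of all promoters. On neither strand did any of the 10 hold the E2F motifs TTTCCCGC (1.07% of all promoters) and TTTGGCGC (0.514%), the AP-1 motif TGANTCA (7.81%) or the CRE TGACGTCA (1.79%). These matches describe the letters in these windows only.

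All 8 libraries expressed the 8 macrophage markers examined, Csf1r and Lyz2 among them. Total counts on genes ranged from 20819860 to 25114354 in control libraries and from 17748397 to 26088609 in So(d18:1) libraries. Control replicate 3 and So(d18:1) replicate 2 lay at opposite ends of the first principal component (30.1% of the variance), along which the groups were apart. No pair of replicates was alike within counting noise (chi-square per gene 2.75 to 12.1). Levels below are given as CPM, the usual scaling of counts to library size, here with edgeR's TMM factors, as mean ± SD of 4 libraries. Differences are log2 fold changes of So(d18:1) against control from edgeR's quasi-likelihood test, with Benjamini-Hochberg adjustment over all tested genes. A gene is said to have risen or fallen where its adjusted p was under 0.05.

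So(d18:1) was accompanied by lower mRNA of cyclin D1, Cdk6 and Myc and higher mRNA of the inhibitors Cdkn1b and Cdkn2c. These 5 of the 10 genes passed the test, 2 upward and 3 downward, where 8.94% of all tested genes passed, 3.87% upward and 5.07% downward. By an unadjusted p under 0.05 with a fold of at least 1.5, 2 of the 10 passed, Ccnd1 and Myc, both lower, against 3.89% of all genes. The control and treated libraries did not overlap for 5 of the 10 genes, 2 higher (Cdkn1a and Cdkn1b) and 3 lower (Ccnd1, Cdk6 and Myc), against 15.0% of all genes, 7.14% higher and 7.87% lower. Because the 10 genes were chosen with earlier results of these data known, counts above these shares are no test of G1 genes as a set. The summed level of the 10 genes was 691.3 to 705.5 CPM in control libraries and 729.8 to 751.7 CPM in treated libraries, and Cdkn1a and Cdkn1b make up most of it. In bulk RNA, fewer cells of a type that express a gene and less of its RNA per cell cannot be told apart.

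**Figure D1:**
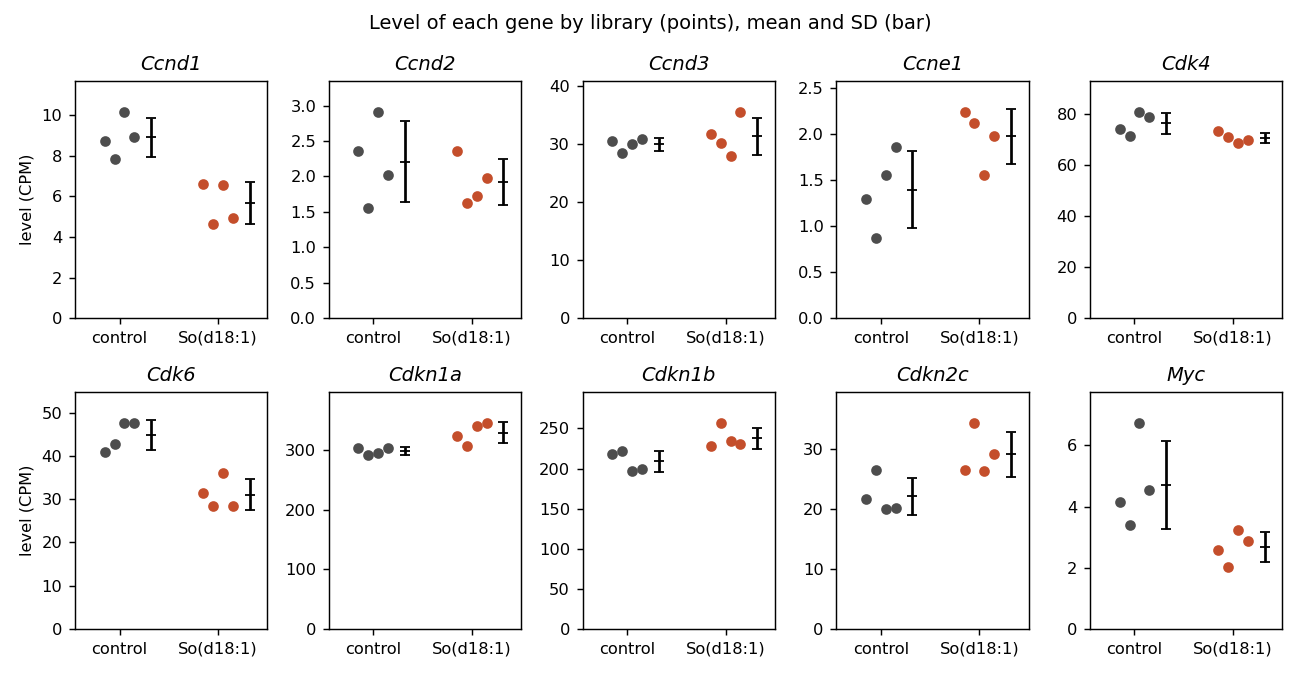
Level of each of the 10 genes in CPM (linear axes from 0, one panel per gene) in the 4 control (grey) and 4 So(d18:1) (orange) libraries, with the mean and SD beside the points. The groups are apart for Ccnd1, Cdk6 and Myc, which are lower with So(d18:1), and for Cdkn1a and Cdkn1b, which are higher.

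Among the D cyclins, only Ccnd1 passed the test. Ccnd1 (7:144929931-144939925, minus strand) was at 8.71, 7.84, 10.2 and 8.91 CPM in control replicates 1 to 4 and at 6.62, 4.66, 6.56 and 4.93 CPM in the treated replicates. Every treated library was below every control library. The mean fell from 8.91 ± 0.956 to 5.69 ± 1.04 CPM, and the fitted fall was 36.6% (log2 fold change -0.66, SE 0.13, 95% interval -0.93 to -0.38, adjusted p = 0.00257). Behind these levels were 181 to 241 counts in a control library and 103 to 127 in a treated one. On the opposite strand, exons of LTO1 cover 23.4% of the exon bases of Ccnd1, and the strand setting of the counting is not given in the sources used here, so reads of these genes could have been mixed. LTO1 itself had a mean of 21.2 CPM without and 21.8 CPM with So(d18:1).

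Ccnd3 (17:47505051-47599691, plus strand), the D cyclin with the highest level, did not pass. It was at 30.5, 28.4, 30.1 and 30.9 CPM in control libraries and at 31.7, 30.2, 28.0 and 35.6 CPM with So(d18:1). The treated libraries lay on both sides of the control range (log2 fold change 0.07, SE 0.07, interval -0.08 to 0.22, adjusted p = 0.596), so the interval leaves room for a rise of up to 1.16-fold. Ccnd2 (6:127125162-127152193, minus strand) was scarce, at 2.36, 1.55, 2.91 and 2.02 CPM in control and 2.36, 1.63, 1.72 and 1.98 CPM in treated libraries. Its groups overlapped almost entirely, and with 33 to 69 counts per library its interval was wide (log2 fold change -0.20, SE 0.22, interval -0.65 to 0.25, adjusted p = 0.620). The fitted change of Ccnd1 lies just outside that interval, but the intervals of Ccnd1 and Ccnd2 overlap. Ccnd2 is therefore not shown to have changed less than Ccnd1.

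Per kilobase of the deposited gene length, Ccnd1 made up 34.1% ± 1.73 of the summed RPKM of the D cyclins in control libraries and 24.3% ± 4.42 with So(d18:1). The libraries did not overlap, with 32.9% to 36.6% in control and 19.7% to 29.2% in treated libraries. Ccnd3 made up 61.7% ± 2.49 and 71.7% ± 4.58. These shares depend on the length used. The deposited length of Ccnd3 is 8775 bases, and its longest principal transcript has 2113. With principal transcripts, chosen after seeing the data, the share of Ccnd1 was 14.1% in control and 9.20% in treated libraries and that of Ccnd3 83.9% and 89.0%.

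Cyclin E1, the CDK2 partner, pointed the other way without passing. Ccne1 (7:38097984-38107534, minus strand) was at 1.30, 0.876, 1.56 and 1.86 CPM in control libraries and at 2.24, 2.13, 1.56 and 1.98 CPM with So(d18:1). The third treated replicate lay within the control range and the other three above it. The fitted log2 fold change was 0.50 with an SE of 0.24 and an interval of 0.01 to 0.99 (unadjusted p = 0.0474, adjusted p = 0.208). Ccne1 was counted 22 to 51 times per library.

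The kinases that D cyclins activate differed in level and in size of change. Cdk6 (5:3341485-3531008, plus strand) was at 41.0, 42.7, 47.6 and 47.7 CPM in control libraries and at 31.5, 28.4, 35.9 and 28.4 CPM in treated libraries. The groups were well apart. Cdk6 fell from 44.8 ± 3.42 to 31.1 ± 3.56 CPM, a fitted fall of 30.8%, and had the smallest p of the 10 genes (log2 fold change -0.53, SE 0.08, interval -0.69 to -0.37, adjusted p = 9.79e-05). Cdk4 (10:127063534-127067920, plus strand), the closest relative of Cdk6, was at 74.1, 71.5, 80.8 and 78.7 CPM in control libraries and 73.2, 70.9, 68.5 and 69.6 CPM in treated libraries. The first treated replicate overlapped the control range. Its log2 fold change was -0.11 (SE 0.05, interval -0.22 to -0.01, unadjusted p = 0.0343, adjusted p = 0.173). Exons of Tspan31, at 58.3 CPM in control and 62.2 CPM in treated libraries, cover 19.7% of the Cdk4 exon bases on the opposite strand.

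Cdk4 was the more abundant kinase per length in both groups. Cdk6 made up 12.0% ± 0.418 of their summed RPKM in control libraries and 9.28% ± 1.08 in treated libraries, where the highest treated library (10.9%) lay below the lowest control library (11.4%). With principal transcript lengths the shares of Cdk6 were 9.46% and 7.27%. Cdk6, with 1 E-box in the promoter shown above, had a fitted fall of 30.8%. Cdk4, with 4, had a fitted difference of 7.51%, which did not pass. The remaining promoter with an E-box was the Cdkn2c promoter not shown, and Cdkn2c rose. Whether these motifs bear on the levels was not tested.

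**Figure D2:**
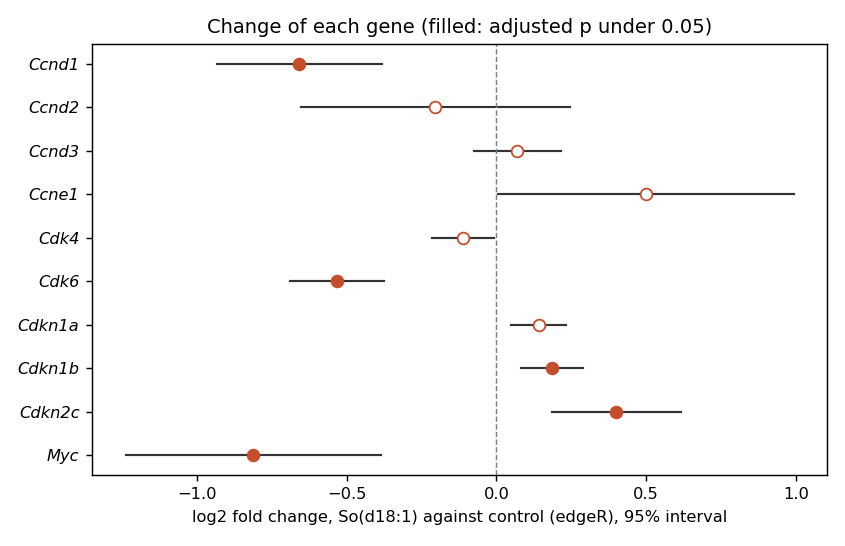
Log2 fold change of So(d18:1) against control for each of the 10 genes (x axis) with its 95% interval from edgeR's quasi-likelihood test, filled where the adjusted p is under 0.05. The filled points are Ccnd1, Cdk6 and Myc to the left of 0 and Cdkn1b and Cdkn2c to the right, and the intervals of Ccnd2, Ccne1 and Myc are the widest.

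The mRNAs of all 3 CDK inhibitors were higher on average with So(d18:1), 2 of them past the threshold. Cdkn1b (6:134920401-134925513, plus strand), which encodes p27, was at 218.0, 222.2, 196.4 and 199.4 CPM in control libraries and at 228.6, 257.2, 234.2 and 230.8 CPM with So(d18:1). Every treated library was above every control library. The rise was small, from 209.0 ± 13.0 to 237.7 ± 13.2 CPM (1.14-fold, log2 fold change 0.19, SE 0.05, interval 0.08 to 0.29, adjusted p = 0.0236). It did not pass without control replicate 3 (adjusted p = 0.0698), control replicate 4 (0.0864) or treated replicate 2 (0.108).

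Cdkn2c (4:109660876-109667189, minus strand), the INK4 inhibitor of CDK4 and CDK6, was at 21.7, 26.5, 19.98 and 20.1 CPM in control libraries and at 26.5, 34.3, 26.4 and 29.1 CPM in treated libraries. Control replicate 2 reached the level of the lowest treated libraries, and the other control libraries lay below all of them. The rise from 22.1 ± 3.04 to 29.1 ± 3.73 CPM was 1.32-fold (log2 fold change 0.40, SE 0.10, interval 0.18 to 0.62, adjusted p = 0.0225). The call was lost in 5 of the 8 fits that each left out 1 library, without control replicates 1 (adjusted p = 0.0546), 3 (0.0619) or 4 (0.0686) and without treated replicates 2 (0.0568) or 4 (0.0712). The log2 fold change in those fits ranged from 0.31 to 0.40.

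Cdkn1a (17:29090976-29100727, plus strand), which encodes p21, was the most abundant of the 10 genes and narrowly missed the threshold. It was at 303.7, 292.0, 295.1 and 304.5 CPM in control libraries and at 324.4, 306.9, 340.4 and 346.4 CPM in treated libraries. The groups did not overlap, although the lowest treated library stood 0.772% above the highest control library. The means were 298.8 ± 6.27 and 329.5 ± 17.7 CPM (log2 fold change 0.14, SE 0.04, interval 0.05 to 0.23, adjusted p = 0.0509). It passed without treated replicate 2 (log2 fold change 0.17, adjusted p = 0.0270) and in DESeq2's Wald test (0.14, adjusted p = 0.0324). Between these inhibitors the fold differed less than their levels did, from 1.10 for Cdkn1a to 1.32 for Cdkn2c.

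Myc (15:61985391-61990374, plus strand), a transcription factor of growth and ribosome synthesis, had the largest fitted change of the 10 genes. It was at 4.14, 3.38, 6.75 and 4.54 CPM in control libraries and at 2.58, 2.04, 3.23 and 2.87 CPM with So(d18:1). The groups were apart, by 0.15 CPM between the lowest control and the highest treated library, and control replicate 3 stood well above the other control libraries. The mean fell by 43.0%, from 4.70 ± 1.44 to 2.68 ± 0.504 CPM (log2 fold change -0.81, SE 0.20, interval -1.24 to -0.39, adjusted p = 0.0165). Without control replicate 3 the log2 fold change was -0.58 (adjusted p = 0.0606), without treated replicate 1 -0.80 (0.0504) and without treated replicate 2 -0.70 (0.0640), so the call was lost in each of these fits. Myc was counted 85 to 160 times per control library and 45 to 74 times per treated library, and none of its 50-base words occurs in another gene. The same held for Cdkn1b, Cdkn2c and Ccne1.

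**Figure D3:**
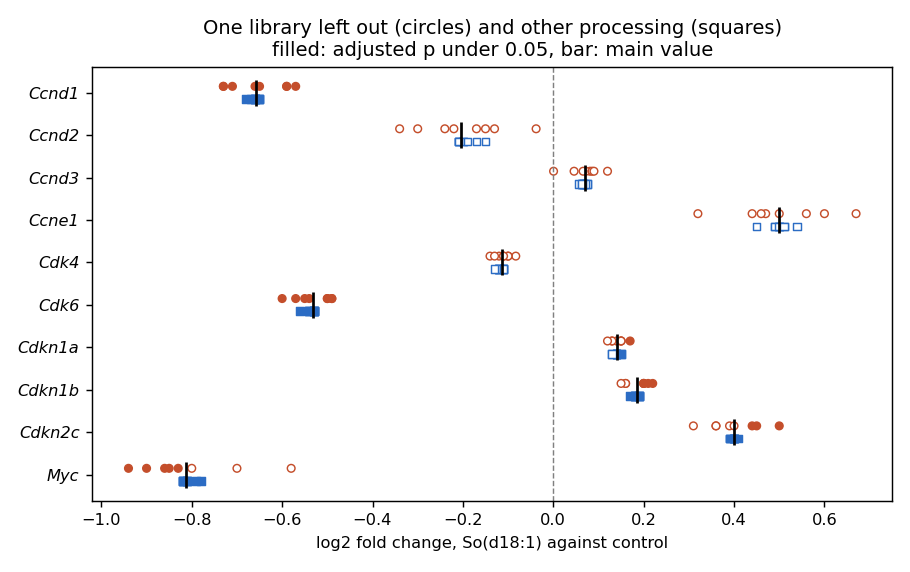
Log2 fold change of each of the 10 genes (x axis) when 1 library is left out (orange circles, 8 per gene) and under 9 other processing choices (blue squares), filled where the adjusted p is under 0.05, with the main value as a vertical bar. Ccnd1 and Cdk6 are filled throughout, whereas Myc, Cdkn1b and Cdkn2c have open circles.

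Set in order of level per deposited gene length, the inhibitors and Cdk4 stood above the cyclins. In control libraries Cdkn1a was at 84.1 ± 1.76 RPKM, Cdkn1b at 45.9 ± 2.85, Cdk4 at 23.5 ± 1.30 and Cdkn2c at 8.21 ± 1.13 RPKM. These were followed by Ccnd3 at 3.42 ± 0.125 RPKM and Cdk6 at 3.20 ± 0.245 RPKM, which did not differ beyond the spread of their libraries. Then came Ccnd1 at 1.89 ± 0.203 RPKM and Myc at 1.73 ± 0.532 RPKM, again overlapping, and Ccne1 at 0.525 ± 0.156 and Ccnd2 at 0.235 ± 0.0607 RPKM were the lowest. The order was the same with So(d18:1), where Ccnd3 and Cdk6 no longer overlapped and Myc (0.986 ± 0.186 RPKM) overlapped both Ccnd1 (1.21 ± 0.221 RPKM) and Ccne1 (0.743 ± 0.112 RPKM). With principal transcript lengths Ccnd3, at 14.2 RPKM in control libraries, stood above Cdkn2c at 8.93 RPKM, and the other genes kept their places.

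Within a group, some libraries were high or low in several of the 10 genes together, as the grid of deviations from the gene means shows. Control replicate 3 had the highest control level of Ccnd1, Ccnd2, Cdk4 and Myc and the lowest of Cdkn1b and Cdkn2c. Control replicate 2 had the lowest control level of those same 4 genes, and of Ccnd3, Ccne1 and Cdkn1a, and the highest of Cdkn1b and Cdkn2c. Among treated libraries, replicate 2 was lowest in Ccnd1, Ccnd2, Cdkn1a and Myc and highest in Cdkn1b and Cdkn2c. Its deviation on the log2 scale was -0.77 for Myc and 0.45 for Cdkn2c, while control replicate 3 deviated by 0.96 and -0.33. Control replicate 3 and treated replicate 2, the ends of the first principal component, were also at or near the ends of the Ccnd1, Myc, Cdkn1b and Cdkn2c ranges. With control replicate 3 left out, 2 of the 10 genes passed, Ccnd1 and Cdk6. With control replicate 4 or treated replicate 2 left out, 3 passed, and with treated replicate 2 left out 815 of all genes passed rather than 1298.

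**Figure D4:**
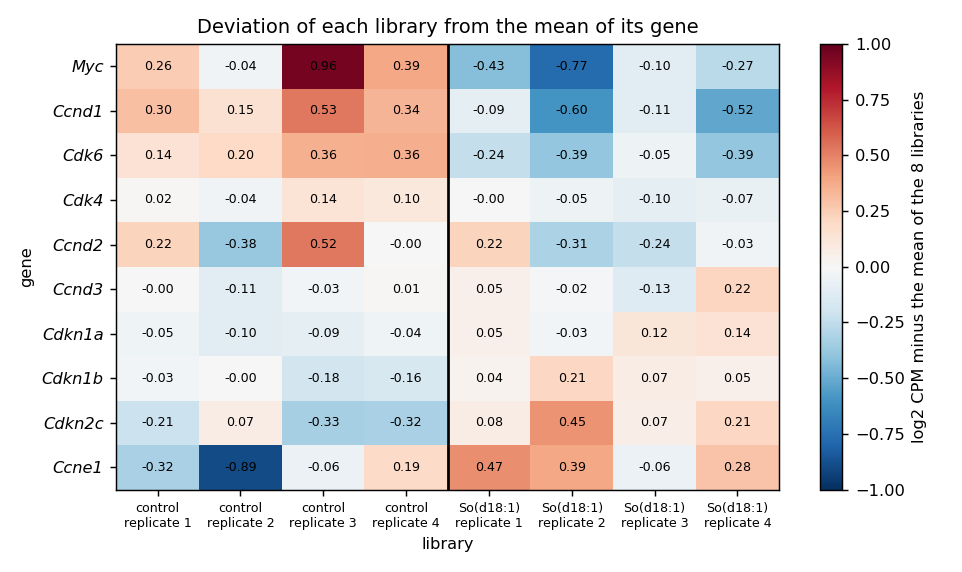
Deviation of log2 CPM from the mean of the 8 libraries (colour and printed value) for each of the 10 genes (rows) in each library (columns, control left of the line). Control replicate 3 (Myc 0.96) and So(d18:1) replicate 2 (Myc -0.77) hold the extreme values for Myc and Ccnd1.

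Genes that act beside these 10 were described by lists, each by its counts and its median log2 fold change beside a median of 0.00 over all tested genes. Of all tested genes 8.94% passed, 3.87% upward and 5.07% downward, and the counts of each list below are to be set beside these shares. The lists, too, were chosen with earlier results of these data known, so a count above these shares is no test of a list. In the RB-E2F and CDK2 module, 2 of 20 tested genes rose and 1 fell, with a median of 0.02. E2f8, a repressive E2F, rose (log2 fold change 0.56, adjusted p = 9.32e-04), as did the E2F partner Tfdp2 (0.27, adjusted p = 0.0431), and the CDK-activating phosphatase Cdc25a fell (-0.27, adjusted p = 0.0346). Neither E2f1 (0.02, interval -0.12 to 0.16) nor Cdk2 (-0.01, interval -0.12 to 0.09) passed, and Rb1 was at -0.14 (adjusted p = 0.0803). Of the other CDK inhibitors, 3 of 5 were tested and Cdkn2d, the INK4 relative of Cdkn2c, rose from 9.22 ± 0.425 to 12.1 ± 1.56 CPM (log2 fold change 0.40, adjusted p = 0.0180). Cdkn2a and Cdkn2b had too few counts to be tested. Among 14 genes for turnover of cyclins and p27, 2 rose and none fell, with a median of 0.02. They were Fbxo31, an F-box protein reported to target cyclin D1 (0.35, adjusted p = 0.00161), and Cks1b, the cofactor with which SKP2 recognises p27 (0.51, adjusted p = 0.0174). The calls of Cdc25a, Tfdp2, Cdkn2d and Cks1b were each lost when some single library was left out. For Cdc25a these were control replicates 1, 3 and 4 and treated replicates 2, 3 and 4 (adjusted p 0.0667 to 0.101), and for Tfdp2 control replicates 3 and 4 and treated replicates 2, 3 and 4 (0.0852 to 0.129). Tfdp2 also missed the threshold with all libraries under upper quartile scaling (0.0612) and with counts drawn down to the smallest library (0.109). For Cdkn2d they were control replicate 4 and treated replicates 2 and 4 (0.0558 to 0.0868), and for Cks1b treated replicate 2 (0.0912). Rb1 passed without control replicate 3 (0.0480).

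The partners and targets of MYC were followed in the same way. Of 10 tested genes of the MYC network, 3 rose and none fell, with a median of 0.11. All 3 encode MAX-binding antagonists of MYC, and they were Mxd1 (log2 fold change 0.26, adjusted p = 0.00213), Mxi1 (0.17, adjusted p = 0.0328) and Mxd4 (0.17, adjusted p = 0.0424). Mxd3, Mnt and Mga, MAX-binding genes of the same list, were tested and did not pass. Max itself was at -0.05 (adjusted p = 0.549). The call of Mxi1 was lost without control replicates 1 and 2 and treated replicates 3 and 4 (adjusted p 0.0535 to 0.107). That of Mxd4 was lost without control replicates 3 and 4 and each treated replicate (0.0550 to 0.135), and with all libraries under upper quartile scaling (0.0707), a minimum of 10 counts (0.0502) and counts drawn down to the smallest library (0.0539). Of 25 genes listed as MYC targets, 3 fell and none rose, where 5.07% of all tested genes fell. Of the 25, 21 had a negative log2 fold change (median -0.17), as did 7127 of the 14514 tested genes. The groups did not overlap for 3 of the 25, against 15.0% of all tested genes. The summed level of the MYC targets overlapped between the groups, at 1805 to 2039 CPM in control libraries and 1788 to 1922 CPM in treated libraries. Control replicate 3 had the highest sum. The nucleolar GTPase Gnl3 (-0.60, adjusted p = 0.00267), the transferrin receptor Tfrc (-0.30, adjusted p = 0.00295) and the rRNA methyltransferase Fbl (-0.26, adjusted p = 0.0139) fell. The call of Fbl was lost without control replicate 4 (adjusted p = 0.0665). DESeq2 called 5 genes of this list, and single left-out libraries gave 2 to 7.

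**Figure D5:**
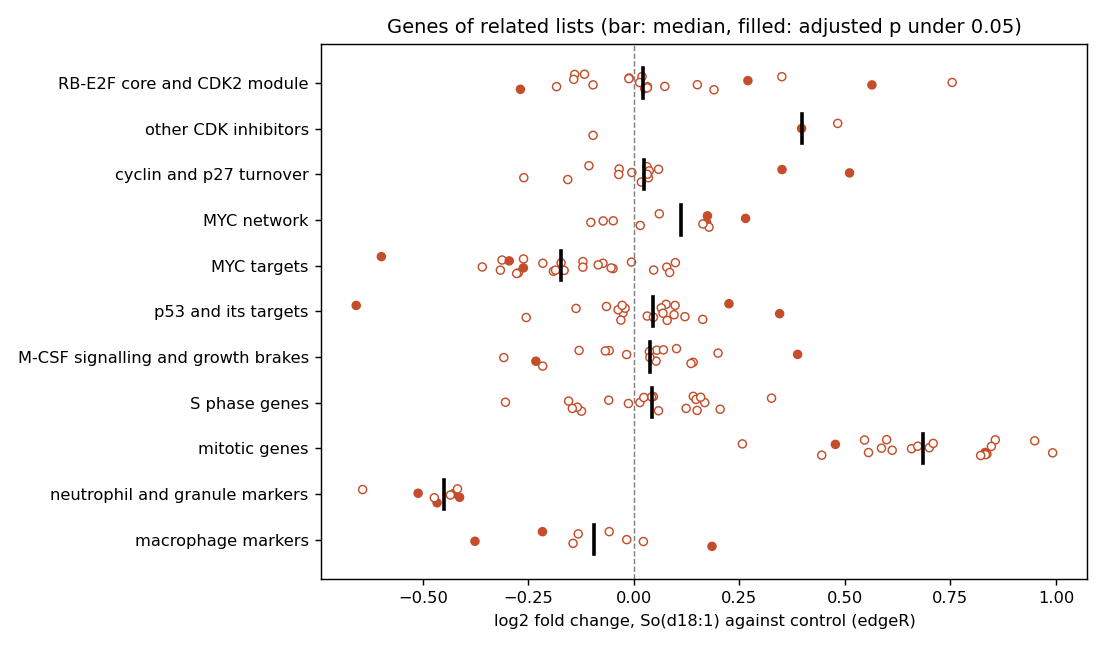
Log2 fold change of So(d18:1) against control (x axis) for the tested genes of 9 pathway lists and 2 marker lists (rows), each point 1 gene, filled where the adjusted p is under 0.05, with the list's median as a bar. The mitotic genes lie to the right of 0 (median 0.69), the neutrophil markers to the left (median -0.45) and most MYC targets to the left (median -0.17).

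Upstream, among 17 genes of M-CSF receptor signalling and macrophage growth brakes, Klf2, a quiescence factor of T cells, rose (0.39, adjusted p = 0.00157) and Maf, which restrains macrophage self-renewal, fell (-0.23, adjusted p = 6.30e-04). The receptor gene Csf1r did not pass (-0.06, interval -0.15 to 0.03, adjusted p = 0.464). Of 21 tested genes of the p53 list, to which Cdkn1a responds, Fas (0.35, adjusted p = 0.00686) and Bbc3 (0.23, adjusted p = 0.0186) rose and the kinase Plk2 fell (-0.66, adjusted p = 6.78e-05), with a list median of 0.05. Trp53 was at -0.03 (adjusted p = 0.796). Bbc3 did not pass without treated replicate 1 (adjusted p = 0.0623). Some of these counts could also hold reads of a gene on the opposite strand, whose exons cover 15.1% of the exon bases of Csf1r, 11.2% of E2f8, 6.06% of Mxd4 and 5.34% of Maf. For Rb1, exons of Rcbtb2 cover 8.11% and those of Lpar6 6.78%. Such exons also cover 7.68% of Cdkn1a and, among the markers below, 14.95% of Mpo and 7.18% of Pax5.

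Downstream, S phase and mitotic genes differed. None of 20 S phase genes (median 0.04) passed edgeR's test, where 8.94% of all tested genes passed. DESeq2 called 1 of the S phase genes and limma-voom 0. The groups did not overlap for 1 S phase gene and 13 of 20 mitotic genes, against 15.0% of all tested genes. All 20 mitotic genes had a positive log2 fold change (median 0.69), as did 7387 of the 14514 tested genes. The adjusted test passed 2 of the 20 mitotic genes, Cdc20 (0.83, adjusted p = 0.0269) and Aurkb (0.48, adjusted p = 0.0174), while DESeq2 passed 11 and limma-voom 18. Leaving out control replicate 3 or 4 ended both calls, as did treated replicate 4 for Cdc20 and treated replicates 1 and 2 for Aurkb (adjusted p 0.0514 to 0.108). With counts drawn down to the smallest library, Cdc20 did not pass (adjusted p = 0.0508). The summed mitotic level was 527.1, 583.7, 397.7 and 428.0 CPM in control replicates 1 to 4 and 626.9, 984.0, 617.8 and 691.0 CPM in treated replicates 1 to 4. Control replicate 3, highest in Ccnd1 and Myc, was the lowest library in this sum, and treated replicate 2, lowest in both, was the highest. Reads could be mixed in these lists too. Exons of a gene on the opposite strand cover 78.8% of the exon bases of Fen1 and 67.3% of Gins2, both S phase genes. Among mitotic genes, such exons cover 29.3% of Kif20a and 22.8% of Ube2c.

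Some markers of other marrow cells, chiefly those of neutrophils, differed between the groups as well. All 8 neutrophil and granule markers were lower on average with So(d18:1), with a median of -0.45, and 4 fell, namely S100a8 (log2 fold change -0.51, adjusted p = 0.00588), S100a9 (-0.47, adjusted p = 0.0276), Elane (-0.41, adjusted p = 0.0286) and Mpo (-0.43, adjusted p = 0.0369), the last named after its value was seen. Without control replicate 4 or any 1 treated library, S100a9 and Elane did not pass (adjusted p 0.0541 to 0.0956), nor did Mpo without control replicates 1 and 4 and treated replicates 2, 3 and 4 (0.0774 to 0.128). Their sum was 1682 to 2325 CPM in control libraries, highest in control replicate 3, and 1325 to 1506 CPM in treated libraries, lowest in treated replicate 2. The 8 macrophage markers summed to 30650 to 32990 CPM in control and 26520 to 31480 CPM in treated libraries. Of these, Mertk (-0.38, adjusted p = 6.20e-06) and Cd68 (-0.22, adjusted p = 0.00349) fell and Itgam rose (0.18, adjusted p = 0.0119). Itgam did not pass without treated replicate 2 (adjusted p = 0.0556), and another gene on the same strand covers 68.7% of its exon bases.

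The 5 B cell markers summed to 16.5 to 19.4 CPM in control and 13.3 to 17.1 CPM in treated libraries, and Pax5 fell (-1.26, adjusted p = 0.0298), a call lost without control replicates 1 and 3 and treated replicates 1, 2 and 3 (0.0503 to 0.121). Of 7 T and NK cell markers only Cd4 had enough counts to be tested, and it fell (-0.42, adjusted p = 0.00865), while Cd3e had 2 counts over the control libraries and 0 over the treated ones. Dendritic cell markers summed to 6.45 to 8.71 CPM in control and 7.06 to 8.97 CPM in treated libraries, and stromal markers to 25.8 to 38.1 CPM and 23.3 to 28.7 CPM. Erythroid and progenitor markers summed to 7.92 to 10.2 CPM in control and 6.51 to 9.11 CPM in treated libraries. Mast cell and basophil markers summed to at most 0.729 CPM in any library, with Tpsb2 at 0 in all 8. The part of these marker shifts and of the mitotic level in the changes of Ccnd1, Cdk6, Myc, Cdkn1b and Cdkn2c was not tested.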

How the data were processed

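Poly(A) RNA of 8 BMDM libraries was sequenced. Per the labels, the authors used Trim Galore 0.6.7 for trimming, HISAT2 2.2.1 for alignment to mm10 and featureCounts 2.0.1 for counting. The deposited values are whole-number counts per Ensembl gene, not normalized, with the gene lengths that featureCounts reports. The annotation release, the strand setting and the treatment of reads with several matches are not given in the sources used here. Columns were matched to libraries by name, and 0 columns of other samples were present.

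Of 55357 identifiers, 52081 carried a symbol in GENCODE release M21 (GRCm38, the build called mm10), and those without held 0.169% to 0.325% of the counts. The test was run in edgeR 4.0.16 under R 4.3.3 (filterByExpr, TMM, quasi-likelihood test with robust dispersion, the 4 control against the 4 So(d18:1) libraries). Standard errors are the absolute log2 fold change over the square root of F, intervals are at 95%, and log2 CPM carry a prior count of 2. Calls are an adjusted p under 0.05, or an unadjusted p under 0.05 with a fold of at least 1.5 as in the study's methods. With 4 libraries in a group their number limits the precision, as do low counts for Ccnd2, Ccne1 and Myc. RPKM used the deposited length. Promoters are from RefSeq, overlaps from GENCODE, and shared sequence was measured in words of 50 bases. Figures were drawn with matplotlib 3.10.9.

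The 10 genes, the pathway lists and the marker lists were chosen with earlier results of these data known. From each list the text names Cdk2, Rb1, E2f1, Max, Trp53 and Csf1r and up to 3 genes with the smallest p in each direction among those with an adjusted p under 0.05. No list was tested as a set. The alternatives were DESeq2 1.42.0 (its size factors and its Wald test), upper quartile scaling, library size alone, all genes with a count in place of the filter, a minimum of 10 counts in each library, voom of limma 3.58.1, the replicate number as a block, counts drawn down to the smallest library, and each library left out in turn. Principal transcript lengths were added after seeing the data. The model was tested on simulated data.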

Additional observations from a re-analysis of the deposited data

Results flagged for a closer look

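Of 88 groups of 4 libraries examined over the named genes, 2 held a library far from the rest, where about 4.4 would be picked out by chance at 1 in 20. In both, the lowest library's gap to its nearest neighbour was set against the whole range of its group and passed Dixon's critical value at 95%. For Max, treated replicate 4 was at 78.2 CPM and the other treated libraries at 82.5 to 83.2 CPM, a gap of 0.851 of the range. For Cd4, treated replicate 2 was at 13.6 CPM and the others at 17.9 to 18.6 CPM, a gap of 0.850 of the range. None of the 10 G1 genes held such a library in either group, the high Myc level of control replicate 3 included.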

How the results depend on the processing

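Ccnd1 and Cdk6 kept their direction and their call under all 17 alternatives, with adjusted p of at most 0.0155 and 9.16e-04, and Ccnd2, Ccnd3, Cdk4 and Ccne1 were called under none. Cdkn1a gained the call with library size alone (log2 fold change 0.15), with no filter on low counts (0.15), in DESeq2's Wald test (0.14) and without treated replicate 2. With no filter, 1212 genes rather than 564 passed the unadjusted p and fold, with the scarce genes included. No sign among the 10 genes turned under any alternative.

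Leaving out 1 library at a time gave 2 to 5 of the 10 genes called, 0 to 2 higher and 2 to 3 lower. The log2 fold change then ranged from -0.94 to -0.58 for Myc, from 0.31 to 0.50 for Cdkn2c, from 0.15 to 0.22 for Cdkn1b and from 0.12 to 0.17 for Cdkn1a. Over all genes these fits called 815 to 1370, of which 360 to 576 higher and 455 to 794 lower. Of the named genes, Cdk2 (-0.031 to 0.014), E2f1 (-0.0034 to 0.050) and Trp53 (-0.044 to 0.0044), none of them called, changed sign in 1 or more of these fits. Of 577 values of other named genes under alternatives, 510 stayed on their side of the threshold in their direction, 61 lost the call and 1 gained it.

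The counts for the cyclin and p27 turnover, MYC network and p53 lists were the same in DESeq2's Wald test, in limma-voom, under the block and with no filter, and those of other lists moved. With no filter, 6 MYC targets were called rather than 3, 9 mitotic genes rather than 2, 5 genes of the M-CSF list rather than 2, 3 other CDK inhibitors rather than 1 and 1 S phase gene rather than 0. DESeq2's Wald test called 11 mitotic genes, 5 MYC targets, 4 genes of the M-CSF list and 1 S phase gene, limma-voom called 18 mitotic genes, and counts drawn down to the smallest library left 1. With 1 library left out, calls ranged from 0 to 5 for mitotic genes, 2 to 7 for MYC targets, 1 to 4 for the RB-E2F module, 0 to 2 for other CDK inhibitors and S phase genes, 1 to 2 for cyclin and p27 turnover and the MYC network, and 2 to 4 for the p53 and M-CSF lists. The cause was not tested.

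Over all tested genes, deviations of same-numbered control and treated libraries correlated at -0.00351 to 0.1002. Only 1 of 4 control libraries matched its own number best. In both groups, though, replicate 2 was lowest in Ccnd1, Ccnd2, Cdkn1a and Myc and highest in Cdkn1b and Cdkn2c. It also had the highest mitotic sum and the lowest neutrophil marker sum in both. The lowest replicate of Ccnd3, Cdk4, Cdk6 and Ccne1 differed between the groups. Whether the numbers pair the samples is not settled by these values, and the labels do not say. With the replicate number as a block, 1784 genes were called, among them 19 of 20 mitotic genes, 6 MYC targets, 4 genes of the M-CSF list and 1 S phase gene, and Cdkn1a gained the call (0.14, adjusted p = 0.0352) while no other of the 10 genes changed side. Drawing counts down to the smallest library kept 5 of the 10 called. Depth limits Ccnd2 and Ccne1 most.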
